A study of Rattus norvegicus with 200 samples.

Results

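A set of 6 transcripts that are known markers of the fibroblasts of the brain's covering membranes was followed through 200 rat RNA-seq libraries. They are Igf2, Igfbp2, Fmod, Col1a1, Col1a2 and Slc13a4, and each was found by its symbol in the deposited count table, which makes 6 of 20361 genes. The genes were chosen by measured CPM differences in these data, with earlier results in view. Igfbp2 had stood out between the diets under dark-feeding, Col1a1 and Slc13a4 between light-feeding and ad libitum feeding on chow, and Igf2, Igfbp2 and Fmod between dark-feeding and ad libitum feeding on the high-fat diet (HFD). Those 3 comparisons are therefore given as descriptions, and nothing is drawn from them. Other comparisons may have been in view as well, so it is not certain that the tests below are independent of the choice. All 6 genes passed the filter on low counts that left 14393 genes to test.

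The libraries were made from RNA of cells that the labels call microglia, isolated from the brain of adult male wild-type Wistar rats. Rats ate chow or HFD. Food was offered ad libitum, in the dark phase only (dark-feeding) or in the light phase only (light-feeding), which gives 6 groups. Each ad libitum group had 34 libraries and each of the other groups 33. Every group was sampled at 6 Zeitgeber times (ZT2, ZT6, ZT10, ZT14, ZT18 and ZT22), with 5 to 7 libraries at each time. ZT0 is lights on.

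The leptomeninges and the dura are built by fibroblasts that deposit collagen and other matrix and line the brain surface and the sheaths of its larger vessels. In the adult brain Igf2 is made chiefly by these membranes and by the choroid plexus. Igf2 is a secreted growth factor that acts through the type 1 insulin-like growth factor (IGF) receptor and is cleared by the Igf2 receptor. Igfbp2 is a secreted protein that binds IGFs, and astrocytes make it too. Col1a1 and Col1a2 are the chains of type I collagen. Fmod (fibromodulin) is a small leucine-rich proteoglycan that binds collagen fibrils. Slc13a4 is a sodium-coupled sulfate transporter.

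The libraries held between 3777731 and 11636258 expected counts, with a median of 7548304. At that depth the median library had 213 counts for Igf2, 97 for Igfbp2, 42 for Fmod, 99.5 for Col1a1, 59.8 for Col1a2 and 54.5 for Slc13a4. The label of the cells was checked against marker genes. The 15 microglial markers summed to group medians of 927 to 1101 counts-per-million (CPM), the 9 neuronal markers to 2993 to 3147 CPM and the 9 oligodendrocyte markers to 13666 to 16189 CPM. The label thus covers libraries in which transcripts of other brain cells were abundant. In such bulk RNA fewer cells of a type and less RNA per cell cannot be told apart. Nothing in the labels ties each library to its own rat, and p-values describe only how far these libraries spread.

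Promoter sequence is shown for Igf2, Igfbp2 and Slc13a4, a ligand, its binding protein and the transporter, because their levels moved together in the libraries described below. Each line is the 250 bases before an annotated start site, 5′ to 3′ on the gene's strand, taken from RefSeq on build GRCr8. The counts were made on Rnor_6.0, so these coordinates do not belong to the count files. Capitals mark motif letters, searched on both strands. They are the TATA box TATAAA and the CAAT box CCAAT. The Sp1 box was searched as GGGCGG and the TEAD motif as GGAATG, and a forkhead motif was searched as GTAAACA. On the opposite strand CCAAT reads ATTGG, and no 2 of the marked matches overlap. The first sequence lies at chr1:207250476-207250725 on the minus strand, the second at chr9:81864561-81864810 on the plus strand, and the third at chr4:64955987-64956236 on the minus strand.
Igf2, start site 2: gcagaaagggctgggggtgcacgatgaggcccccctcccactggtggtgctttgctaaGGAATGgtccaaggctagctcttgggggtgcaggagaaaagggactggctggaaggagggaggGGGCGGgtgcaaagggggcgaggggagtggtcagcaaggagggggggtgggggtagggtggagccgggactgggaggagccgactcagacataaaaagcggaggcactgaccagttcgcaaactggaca
Igfbp2: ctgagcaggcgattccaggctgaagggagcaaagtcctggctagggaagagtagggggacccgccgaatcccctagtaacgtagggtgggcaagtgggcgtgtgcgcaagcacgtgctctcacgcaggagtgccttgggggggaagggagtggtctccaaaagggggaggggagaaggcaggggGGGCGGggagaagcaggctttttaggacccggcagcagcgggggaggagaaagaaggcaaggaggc
Slc13a4: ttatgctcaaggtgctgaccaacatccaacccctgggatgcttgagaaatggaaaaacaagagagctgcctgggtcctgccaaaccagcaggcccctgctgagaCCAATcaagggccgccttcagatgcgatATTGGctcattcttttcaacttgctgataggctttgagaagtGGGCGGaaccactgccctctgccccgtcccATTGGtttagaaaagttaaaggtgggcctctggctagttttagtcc

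The Igf2 window, which was 63.6% G and C, held GGAATG 192 bases and GGGCGG 129 bases before the start. The Igfbp2 window, 64% G and C, held GGGCGG 66 bases before the start. The Slc13a4 window was 52% G and C. It held CCAAT at 146 bases on the gene's strand, at 118 and 46 bases on the opposite strand, and GGGCGG at 76 bases before the start. The sequence tables matched 5 of the 6 genes, all but Col1a1. Distances are counted from the start sites as listed, which may not be those used in these cells, for Igf2 and Col1a2 in particular. Fmod held CCAAT and GGGCGG, Col1a2 held TATAAA and CCAAT, and the other listed start site of Igf2 held none of the 5 motifs. Over all 33469 promoters in the tables, 30.5% held GGGCGG, 34% CCAAT, 12.9% TATAAA, 12.1% GGAATG and 3.21% GTAAACA, and the median G and C content was 51.2%. A match describes the letters of these windows only.

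Per length of transcript, Igfbp2 and Igf2 were the most abundant of the 6. Over all libraries the deposited FPKM (fragments per kilobase, scaled to library size) averaged 14.8 ± 7.98 (SD, n = 200) for Igfbp2 and 9.8 ± 4.87 for Igf2. Slc13a4 averaged 2.89 ± 1.35 FPKM, Col1a1 2.53 ± 0.988, Fmod 2.32 ± 0.993 and Col1a2 2.03 ± 1.19. The last 4 genes thus lay within 1 SD of each other. All further levels are CPM scaled by edgeR's TMM factors, and they are compared within a gene.

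Igf2, the growth factor, ran from 6.69 through a median of 28.9 to 68.7 CPM in the chow ad libitum libraries. It ran from 9.88 through 37.1 to 93.3 CPM under chow dark-feeding and from 20.6 through 38.9 to 96.2 CPM under chow light-feeding. The medians of both restricted chow groups stood above the ad libitum median, and the ranges overlapped widely. On HFD the order was the opposite. Igf2 ran from 14.3 through 29.9 to 62.8 CPM in the ad libitum libraries, from 11.4 through 21 to 35.7 CPM under dark-feeding, and from 10.3 through 22.8 to 39.3 CPM under light-feeding. By group mean Igf2 was ordered from chow light-feeding (43 ± 16.4 CPM, SD, n = 33) and chow dark-feeding (39.5 ± 17.3) to HFD ad libitum (31.4 ± 10.9), chow ad libitum (30.8 ± 16.6), HFD light-feeding (23.7 ± 6.54) and HFD dark-feeding (22.4 ± 6.81). Each step between neighbours in this order was smaller than the larger of their SDs.

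The other 5 genes shared the top and the bottom of that order, with chow light-feeding first, chow dark-feeding next and both restricted HFD groups last. Igfbp2, which binds IGFs, averaged 21.2 ± 7.33 CPM (SD, n = 33) under chow light-feeding and 10.5 ± 2.97 under HFD light-feeding. Col1a1 averaged 18.9 ± 5.33 and 10.9 ± 2.4 CPM in these groups, and Slc13a4 averaged 11 ± 3.53 and 6.13 ± 1.67 CPM. In the ad libitum groups the diets differed less. Slc13a4 averaged 7.65 ± 3.59 CPM on chow and 7.82 ± 2.86 CPM on HFD, and Col1a1 13.3 ± 5.37 and 13.1 ± 3.95 CPM. Fmod, the least abundant in CPM, averaged 5.82 ± 2.86 and 6.23 ± 1.90 CPM there. For each of the 5 genes, too, every step between neighbouring groups was smaller than the larger SD. Col1a2 was listed at 0 in 2 libraries, both on HFD, and 99% of its entries were not whole numbers, so its counts were partly estimated by the authors' counting and are uncertain.

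**Figure D1:**
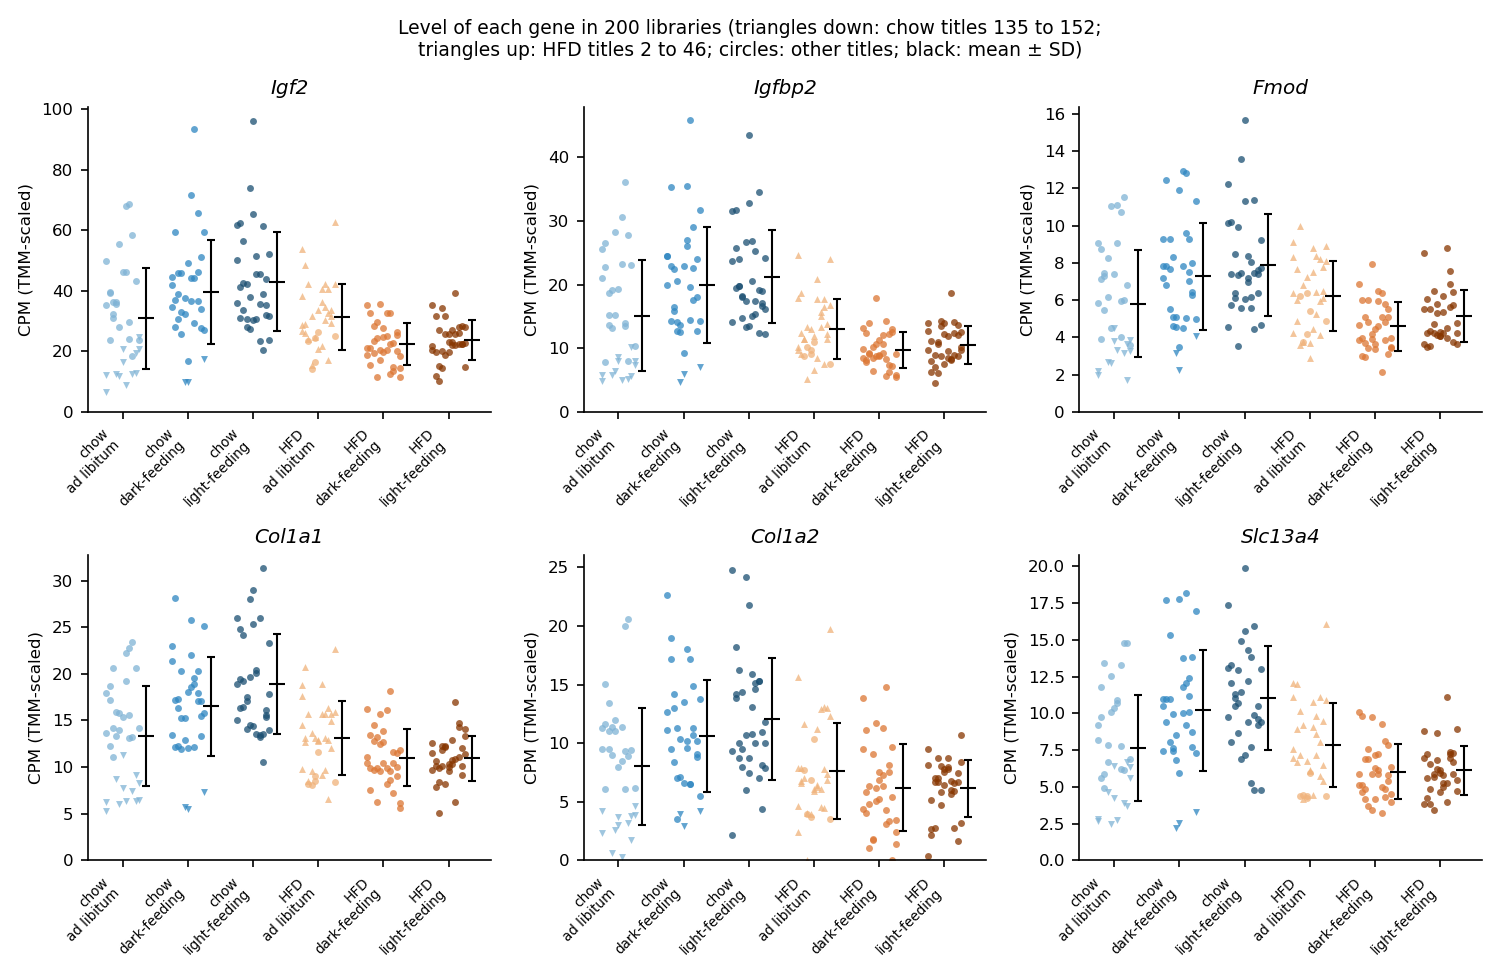
CPM of each gene (vertical axis, TMM-scaled) in every library of the 6 groups, with the mean ± SD in black; triangles mark the libraries of chow titles 135 to 152 (down) and HFD titles 2 to 46 (up). The low chow ad libitum libraries are mostly downward triangles, and the restricted HFD groups sit lowest.

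Every library title carries a number within the series of its diet, and the genes' levels followed that number. Chow titles ran from 14 to 152 and HFD titles from 2 to 141, with 100 libraries each, so diet cannot be told apart from anything that went with the series. The 2 title ranges described next were chosen after the values were seen, so they are not groups of the study, and they are not tested against the other libraries. Comparisons repeated without them are given as descriptions, since leaving out libraries picked for their values moves a difference in a direction that the choice fixes. The 15 chow libraries with titles 135 to 152 were low in all 6 genes. Igf2 ran from 6.69 through 12.5 to 24.6 CPM in them and from 16.7 through 37.8 to 96.2 CPM in the other 85 chow libraries. Col1a1 ran from 5.3 through 6.44 to 11.3 CPM against 10.5 through 17 to 31.4 CPM. Igfbp2 had medians of 5.93 and 19.5 CPM, Fmod of 3.18 and 7.42, Col1a2 of 3.17 and 10.7, and Slc13a4 of 3.73 and 10.4 CPM. Of these 15 libraries 12 were ad libitum, 3 were dark-fed and 0 were light-fed.

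The 28 HFD libraries with titles 2 to 46 were all ad libitum, and they held higher values than the other 72 HFD libraries for 5 of the genes. Igf2 ran from 15.4 through 32.1 to 62.8 CPM in them and from 10.3 through 22.6 to 39.3 CPM in the others. Slc13a4 ran from 4.16 through 8.32 to 16 CPM against 3.24 through 5.82 to 11.1 CPM. For Col1a2 the medians lay close together, at 6.8 and 6.38 CPM. Within a single group and time the split could be seen in some places and not in others. Among chow ad libitum libraries at ZT14, Igf2 stood at 12.5, 19.5 and 24.6 CPM in the late titles and at 68.0 and 68.7 CPM in the earlier ones. Among HFD ad libitum libraries at ZT10 it stood at 48.6 and 53.7 CPM in titles up to 46 and at 14.3, 16.6 and 23.4 CPM in later titles. At ZT18 the 2 later-titled HFD ad libitum libraries (24.5 and 26.2 CPM) lay inside the range of the 4 early ones (15.4 to 28.8 CPM). The labels do not say what the numbers stand for, and their part in the comparisons below was not tested beyond the values given without these libraries.

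Markers of other cell types moved with the chow titles. In the libraries with titles 135 to 152 the summed medians were 588 CPM for astrocyte markers against 824 in the other chow libraries, 96.9 against 150 for endothelial, 76.8 against 118 for mural, 819 against 1096 for microglial and 39.7 against 62.9 for border macrophage markers. Other fibroblast genes summed to 281 against 365 CPM and choroid plexus markers to 280 against 368 CPM. Neuronal markers were at 3171 against 2981 CPM and oligodendrocyte markers at 11957 against 14228 CPM.

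**Figure D2:**
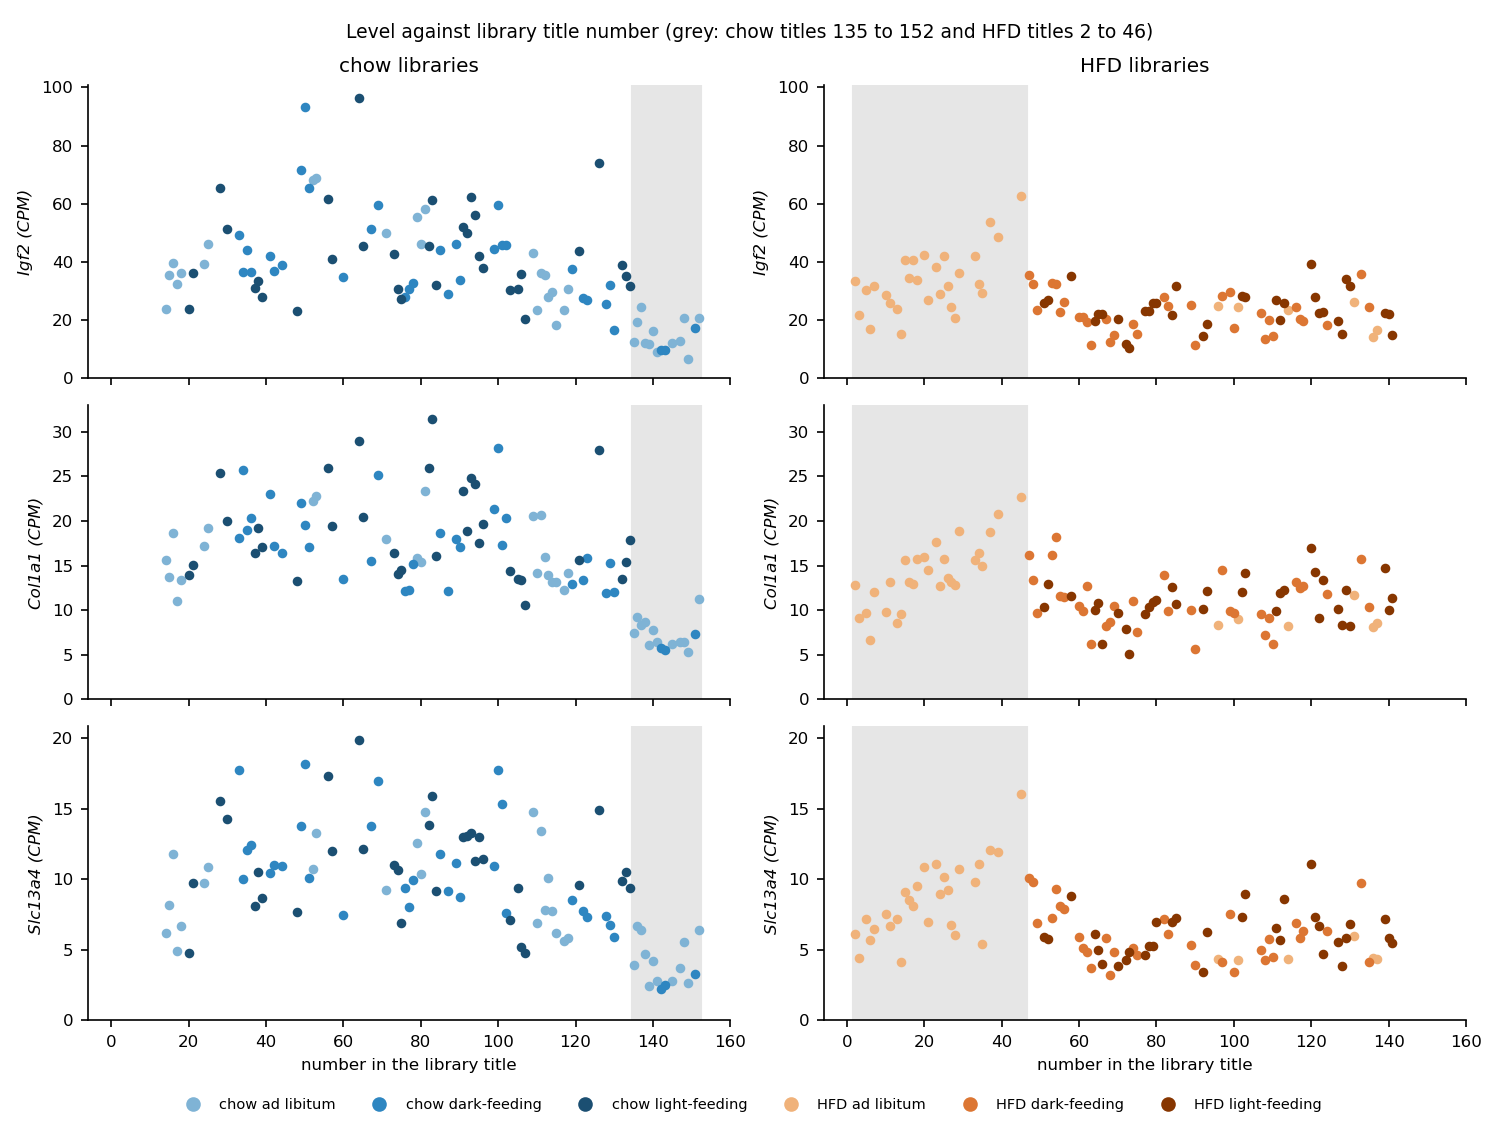
CPM of Igf2, Col1a1 and Slc13a4 (vertical axis) against the number in the library title (horizontal axis) for chow (left) and HFD (right), coloured by group, with grey over chow titles 135 to 152 and HFD titles 2 to 46. Igf2 does not exceed 24.6 CPM in the grey chow range.

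Under light-feeding all 6 genes were lower on HFD than on chow, by 34.9% for Fmod to 50.7% for Igfbp2. This comparison is not among the 3 known to have been used in choosing them, though it shares its chow libraries with the one that chose Col1a1 and Slc13a4. It holds no library of either title range, and its 33 libraries a diet spanned all 6 times. Igf2 fell by 0.87 on the log2 scale (SE 0.11, adjusted p = 1.8e-09, edgeR's quasi-likelihood test with Benjamini-Hochberg adjustment over all genes) and was lower at 6 of 6 times. Igfbp2 fell by 1.02 (SE 0.11, adjusted p = 1.2e-11), from a median of 19.1 CPM (12.2 to 43.5) to 10.1 CPM (4.56 to 18.6). The restricted HFD libraries reached into the chow range for both genes, with the larger part of them below the chow median.

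The matrix genes and the transporter moved the same way. Col1a1 went from a median of 17.5 CPM (10.5 to 31.4) on chow to 10.8 CPM (5.09 to 17) on HFD, a log2 change of -0.78 (SE 0.09, adjusted p = 4.9e-11). Col1a2, its partner chain, went from 10.7 CPM (2.18 to 24.8) to 6.71 CPM (0.386 to 10.7), a log2 change of -0.97 (SE 0.15, adjusted p = 4.8e-07). Both chains were lower at 6 of 6 times, and the ranges of the diets overlapped. Fmod went from 7.42 CPM (3.52 to 15.7) to 4.72 CPM (3.47 to 8.82), a log2 change of -0.62 (SE 0.10, adjusted p = 1.5e-06), and was lower at 5 of 6 times. Slc13a4 went from 10.7 CPM (4.78 to 19.9) to 5.87 CPM (3.4 to 11.1), a log2 change of -0.84 (SE 0.10, adjusted p = 1.1e-09), and was lower at 6 of 6 times. So 6 of 6 genes were called lower, in a comparison in which 50.5% of all genes tested were called and 26% were called lower. The median of all genes tested was -0.01 on the log2 scale. The 6 genes stayed called under each of the 12 alternatives run, with changes between -1.16 and -0.44. None of the 12 took the title number into account, so its part in this difference was not tested.

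Under dark-feeding, a comparison that was used in choosing Igfbp2, HFD minus chow came to -0.77 on the log2 scale for Igf2, -0.98 for Igfbp2, -0.64 for Fmod, -0.58 for Col1a1, -0.77 for Col1a2 and -0.75 for Slc13a4. Each gene was lower at 6 of 6 times. These are descriptions, beside 46% of all genes called and 23.3% called lower. Without the 3 chow libraries of titles 135 to 152 the changes lay between -1.09 and -0.66.

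Between the ad libitum groups, which share their libraries with comparisons used in the choice, none of the 6 genes was called. The diet difference on the log2 scale was 0.03 for Igf2 (95% interval -0.28 to 0.35), -0.20 for Igfbp2 (-0.53 to 0.13), 0.09 for Fmod (-0.19 to 0.38), -0.03 for Col1a1 (-0.27 to 0.21), -0.10 for Col1a2 (-0.52 to 0.32) and 0.03 for Slc13a4 (-0.25 to 0.32). Here 20.3% of all genes tested were called and 10.8% were called lower. By edgeR 0 genes of the 6 passed, 0 had an unadjusted p below 0.05, and DESeq2 called 0 of the 6 and 3020 of all genes. This result moved when libraries of the title ranges were left out, in the direction that their low chow or high HFD values set. Without chow titles 135 to 152 Igf2 (-0.36), Igfbp2 (-0.61), Col1a1 (-0.36) and Col1a2 (-0.55) were called lower, 4 of the 6, beside 4895 of all genes called. Without HFD titles 2 to 46, which leaves 6 HFD ad libitum libraries at ZT10, ZT14 and ZT18 only, Col1a1 (-0.74) and Slc13a4 (-0.97) were called lower, beside 2976 of all genes called.

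The diet difference under restricted feeding minus that under ad libitum feeding shares its libraries with the comparisons that chose the genes, so it is a description. It ranged from -0.81 to -0.55 on the log2 scale for dark-feeding and from -0.91 to -0.70 for light-feeding. Without chow titles 135 to 152 it ranged from -0.55 to -0.30 and from -0.56 to -0.36. Without HFD titles 2 to 46 it ranged from -0.42 to -0.02 and from -0.52 to -0.02.

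**Figure D3:**
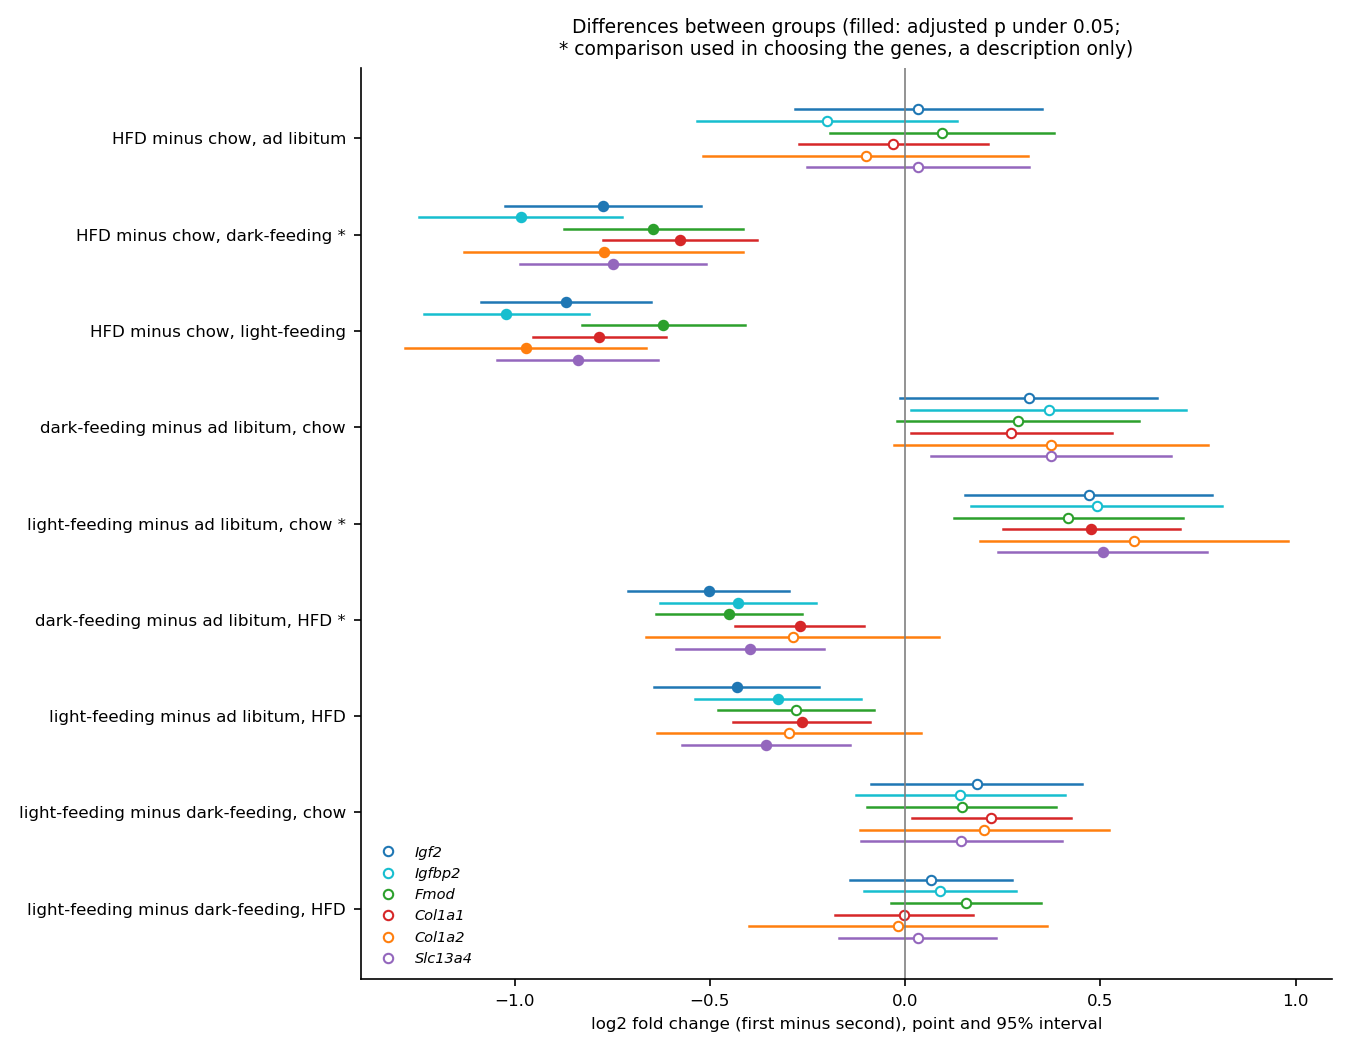
Log2 fold change (horizontal axis) with its 95% interval for each gene in the 9 comparisons between groups; filled points had an adjusted p under 0.05 and stars mark the comparisons used in choosing the genes. All 6 points are filled and below 0 for the diets under light-feeding, and all 6 are open for the diets under ad libitum feeding.

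Schedules were compared within each diet. On chow, dark-feeding minus ad libitum was positive for all 6 genes, from 0.27 for Col1a1 to 0.37 for Igfbp2, Col1a2 and Slc13a4, with adjusted p-values of 0.37 to 0.44 (edgeR), and was not called for any. The background was 0% of genes called. By edgeR 0 genes passed, while 1714 genes, 3 of the 6 among them, had an unadjusted p below 0.05, and DESeq2 called 1 gene of all. Without chow titles 135 to 152 the 6 differences lay between -0.004 and 0.14. Light-feeding minus ad libitum on chow, which chose Col1a1 and Slc13a4, came to 0.42 for Fmod up to 0.59 for Col1a2, with Col1a1 (0.48) and Slc13a4 (0.51) called, as their choice by this comparison fixes. The background was 1.67% of all genes called, from which nothing is read. Without chow titles 135 to 152 these differences were 0.09 to 0.21, and 0 of the 6 and 0 of all genes were called, from 241 of all genes. Light-feeding minus dark-feeding on chow ranged from 0.14 for Igfbp2 to 0.22 for Col1a1, and was called for none, with a background of 0% called. Here 616 genes, Col1a1 among them, had an unadjusted p below 0.05 and DESeq2 called 0.

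On HFD the restricted groups were lower than the ad libitum group. Dark-feeding minus ad libitum, which chose Igf2, Igfbp2 and Fmod, came to -0.50 for Igf2, -0.43 for Igfbp2, -0.45 for Fmod, -0.27 for Col1a1, -0.29 for Col1a2 and -0.40 for Slc13a4. The 5 genes other than Col1a2 were called and 4.68% of all genes were, a description from which nothing is read. Light-feeding minus ad libitum, which is not among the comparisons known to have been used but shares its ad libitum libraries with one of them, was called lower for 4 of the 6 genes, where 10.6% of all genes were called. Igf2 fell by 0.43 on the log2 scale (SE 0.11, adjusted p = 0.0054 by edgeR) and was lower at 4 of 6 times. Igfbp2 fell by 0.33 (adjusted p = 0.037), Col1a1 by 0.26 (adjusted p = 0.041) and Slc13a4 by 0.36 (adjusted p = 0.025). Fmod (-0.28, adjusted p = 0.058) and Col1a2 (-0.30, adjusted p = 0.27) did not pass.

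These differences changed when the HFD libraries of titles 2 to 46 were left out, in the direction that their mostly high values set. Those libraries make up 28 of the 34 ad libitum libraries and include no restricted one, so title range and schedule cannot be told apart. The 6 ad libitum libraries left stood at ZT10, ZT14 and ZT18 only, and with so few libraries fewer genes can pass. Against these 6 libraries, light-feeding minus ad libitum ranged from -0.07 to 0.52 and dark-feeding minus ad libitum from -0.23 to 0.18, with 0 of the 6 genes called in either. Of all genes 0 were called in the light-feeding comparison, from 1524, and 35 in the dark-feeding one, from 674. In the light-feeding comparison 5 of the 6 genes turned positive, Col1a2 being the exception. The 2 restricted HFD groups lay close to each other. Light-feeding minus dark-feeding ranged from -0.02 for Col1a2 to 0.16 for Fmod, with 95% intervals between -0.40 and 0.36, and 0 of the 6 were called by edgeR or DESeq2 or had an unadjusted p below 0.05. Here 0.0834% of all genes were called.

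Time of day was followed with a cosine of 24 h period. With all groups in a single fit, Col1a1 and Slc13a4 were called rhythmic, where 41% of all genes were. Col1a1 had a peak-to-trough difference of 0.38 on the log2 scale, 1.3-fold, with its peak at 6.65 h after lights on (adjusted p = 0.000495, edgeR). Slc13a4 differed by 0.37 with its peak at 6.64 h (adjusted p = 0.0083). The other 4 genes had differences of 0.22 to 0.32 with peaks from 7.93 to 9.56 h and adjusted p-values of 0.067 to 0.19. These calls rested on single times, since without ZT6 0 of the 6 genes passed. Col1a1 and Slc13a4 stayed called without chow titles 135 to 152 (adjusted p = 0.00016 and 0.0044, edgeR), where 5282 of all genes were called. They also did without HFD titles 2 to 46 (adjusted p = 0.0083 and 0.043, edgeR), where 4644 of all genes were called.

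Group by group the calls and the peaks differed. In the HFD ad libitum group 5 of the 6 genes were called, where 19.5% of all genes were, with peaks from 3.47 to 5.78 h. There Col1a1 averaged 17.7 ± 3.15 CPM at ZT6 (SD, n = 5) and 9.77 ± 2.31 CPM at ZT14 (n = 6), a fitted difference of 0.75 on the log2 scale (adjusted p = 0.0034, edgeR). Igf2, the other gene, had an adjusted p of 0.14. In this group titles 2 to 46 ran largely in blocks of a single time, so time of day and title order cannot be told apart. At ZT10 Col1a1 averaged 19.8 CPM in titles 2 to 46 (n = 2) and 8.28 CPM in later titles (n = 3). Under HFD dark-feeding Col1a1 (adjusted p = 0.026) and Slc13a4 (adjusted p = 0.0028) were called, beside 27.3% of all genes. Slc13a4 averaged 7.77 ± 1.10 CPM at ZT6 and 4.65 ± 1.06 CPM at ZT14 (n = 5 each). Under chow light-feeding Igfbp2 (0.67 on the log2 scale, peak 4.79 h, adjusted p = 0.040) and Slc13a4 (0.70, peak 4.52 h, adjusted p = 0.033) were called, beside 20.2% of all genes. Slc13a4 averaged 14.2 ± 4.01 CPM at ZT6 and 7.23 ± 2.25 CPM at ZT14 there (n = 5 each). The called genes of these 3 groups thus peaked in the light phase. In these 3 groups no gene kept its call when the title number entered the fit. Libraries of a time often had neighbouring titles, so that fit can take up time of day as well, and nothing is read from the loss.

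In the remaining groups 0 of the 6 genes were called by edgeR. In chow ad libitum libraries the background was 4.48% of genes called. There 3 of the 6 and 21.6% of all genes had an unadjusted p below 0.05, and the fitted peaks lay between 11.5 and 15.5 h. Under HFD light-feeding the background was 0.868%. Here 4 of the 6 and 16.4% of all genes had an unadjusted p below 0.05, and the peaks lay between 12.2 and 17.6 h. Under chow dark-feeding the background was 22.6%, 1 of the 6 and 37.9% of all genes had an unadjusted p below 0.05, and the peaks lay between 6.54 and 10.9 h. The highest mean of Igf2 at any time was nevertheless in that group, 68.2 ± 15.9 CPM at ZT14 (n = 5), with libraries at 51.3, 59.5, 65.5, 71.5 and 93.3 CPM. All 5 lay above the group's mean at each other time, which ranged from 24.3 to 46.6 CPM. Their titles were 49, 50, 51, 67 and 69. No other model of time was fitted within this group. Igfbp2 (33.2 CPM), Fmod (10.9 CPM), Col1a2 (14 CPM) and Slc13a4 (14.6 CPM) also had their highest chow dark-feeding mean at ZT14. The lowest mean of Igf2 at any time was 15.2 ± 4.37 CPM under HFD light-feeding at ZT2 (n = 5), with libraries at 10.3, 11.8, 14.4, 18.9 and 20.4 CPM.

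The difference in rhythm between the diets was tested after the values were seen. Under light-feeding it was called for Igfbp2 (adjusted p = 0.0277, edgeR), Fmod (adjusted p = 0.0316) and Slc13a4 (adjusted p = 0.0312), where 9.02% of all genes were called. Chow means of Slc13a4 peaked at ZT6 and HFD means at ZT10 (7.03 ± 1.08 CPM, n = 5). The other 3 had adjusted p-values of 0.056 (Igf2), 0.12 (Col1a1) and 0.72 (Col1a2). Under ad libitum feeding 0 of the 6 were called, with adjusted p-values of 0.12 to 0.23, while all 6 had an unadjusted p below 0.05, as had 2316 of all genes, of which 0% were called. Under dark-feeding 0 were called, with adjusted p-values of 0.45 to 0.81. There 0 of the 6 and 2327 of all genes had an unadjusted p below 0.05, and 0% of all genes were called. Libraries of a group and time often had neighbouring titles (121 of 198 neighbouring pairs), so time and title number were not independent. With a spline of the title number within each diet 0 of the 6 were called under light-feeding.

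**Figure D4:**
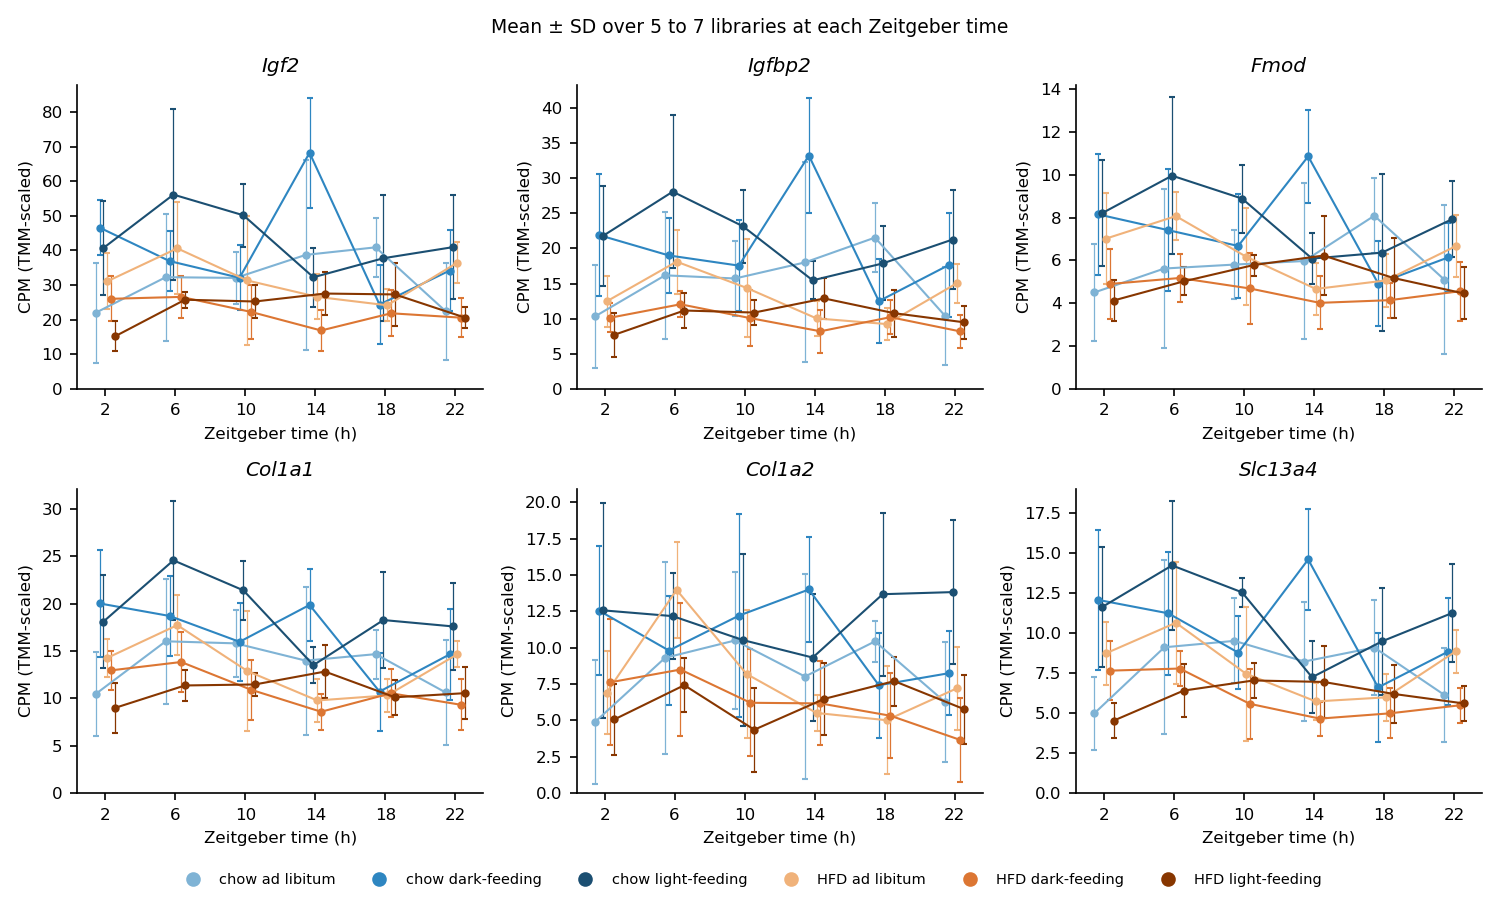
Mean CPM ± SD (vertical axis) over 5 to 7 libraries at each Zeitgeber time (horizontal axis, h) for the 6 genes, with a line for each group. The chow dark-feeding line has its highest Igf2 mean, 68.2 CPM, at ZT14, and the HFD light-feeding line its lowest, 15.2 CPM, at ZT2.

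Genes that work beside the 6 were taken from lists chosen with earlier results known, and are described by their counts in the diet comparison under light-feeding. Of the 26 other genes of brain fibroblasts 23 could be tested, of which 20 were lower on HFD and 0 higher, with a median of -0.70 on the log2 scale. Col3a1, a chain of type III collagen, fell by 0.92 (SE 0.10), the transporter gene Slc6a13 fell by 0.91, and Col6a2, a chain of type VI collagen, fell by 0.70 (SE 0.06, adjusted p = 3.4e-13, edgeR). Of the 7 other small leucine-rich proteoglycans 4 could be tested under their plain symbols, and all 4 were lower, with a median of -0.54. Ogn was counted by an entry that was at 0 in 197 libraries and did not pass the filter. A second entry of that gene (gene-Ogn) passed, but it was left out here and among the 26 other fibroblast genes. Lum changed by -0.79, Prelp by -0.58, Dcn by -0.51 and Bgn by -0.17. The change of Fmod itself, -0.62, lay within this range.

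Of 15 tested genes that fold, cut and cross-link type I collagen, 8 were lower and 0 higher, with a median of -0.11. Serpinh1, the collagen chaperone, changed by -0.80, Pcolce, which helps to cut the C-terminal propeptide, by -0.79, Loxl1 by -0.74 and Sparc by -0.54. The prolyl hydroxylase subunit gene P4hb was at 0.02 and did not pass. Of 13 tested genes of the IGF axis 3 were lower and 3 higher, with a median of 0.02, a share of lower genes near the 26% over all genes. The binding protein genes Igfbp7 (-0.89), Igfbp6 (-0.58) and Igfbp4 (-0.40) were lower, and Igfbp5 (0.31), the insulin receptor gene Insr (0.25) and the receptor gene Igf1r (0.19) were higher. The clearance receptor gene Igf2r (0.02) and Igf1 (0.05) did not pass. Of 7 tested genes of sulfate handling 2 were lower and 0 higher, with a median of -0.01, again near the 26% over all genes. Those were Papss2 (-0.67), which makes the sulfate donor, and the citrate transporter gene Slc13a5 (-0.44), a relative of Slc13a4, while the sulfate transporter gene Slc13a1 (0.21) did not pass. Under ad libitum feeding 2 of the 23 other fibroblast genes, 4 of the 15 collagen genes, 0 of the 4 proteoglycans and 0 of the 7 sulfate genes were lower on HFD, as was 1 of the 13 IGF genes. There 2 IGF genes and 1 sulfate gene were higher, and 10.8% of all genes were lower.

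Markers of astrocytes, endothelial cells and mural cells moved with the 6 genes in the diet comparison under light-feeding. Of the 14393 genes tested there, 3735 (26%) were called lower and 3535 higher. Of 12 astrocyte markers 11 were lower on HFD under light-feeding and 1 higher, with a median of -0.76. All but 1 of 9 endothelial markers tested (8 lower, median -0.74) and of 8 mural markers tested (7 lower, median -0.79) were lower too. Choroid plexus markers, of interest because that tissue also makes Igf2, were lower for 6 of 10 and higher for 1, with a median of -0.48. Of 14 microglial markers 7 were lower (median -0.22), of 5 border macrophage markers 1 was lower and 1 higher (median 0.15), and of 5 erythrocyte markers 3 were lower (median -0.76). The single ependymal marker tested was lower at -0.62. Oligodendrocyte markers went the other way, with 5 of 9 higher and 0 lower (median 0.18). Of 9 neuronal markers 4 were lower and 2 higher (median 0.01), and nothing is read from these or the border macrophage counts. The summed astrocyte markers ran from 609 through a median of 882 to 1586 CPM in the chow light-fed libraries and from 529 through 682 to 905 CPM in the HFD light-fed ones. The summed endothelial markers ran from 112 through 151 to 242 CPM and from 91.1 through 125 to 150 CPM, and the summed mural markers from 84.9 through 115 to 251 CPM and from 69.3 through 89.9 to 121 CPM. The part of these cells in the levels of the 6 genes was not tested.

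The 6 genes rose and fell together from library to library. Log2 CPM was centred within each group and time, and the 15 pairs of genes were then correlated over the 200 libraries, which share depth and library composition. Pearson's r ran from 0.47 to 0.89 with a median of 0.77, and Spearman's rho from 0.51 to 0.86. Each of the 15 had a permutation p of 1e-05, the smallest that the 100000 permutations can give, and 1e-05 after Benjamini-Hochberg adjustment. Igf2 and Igfbp2 were the closest pair (r = 0.89). The pairs without Col1a2 lay between 0.71 and 0.89, and those with it, its partner chain Col1a1 included, between 0.47 and 0.58. Without the 2 libraries farthest from the median r ran from 0.46 to 0.89. Within chow libraries r ran from 0.62 to 0.93 and within HFD libraries from 0.27 to 0.81. In the 157 libraries outside both title ranges it ran from 0.33 to 0.84. The permutations were within group and time, and some of these sets held libraries on both sides of a title range. The permutation p-values thus do not set that split apart, and none is given for the 157 libraries.

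**Figure D5:**
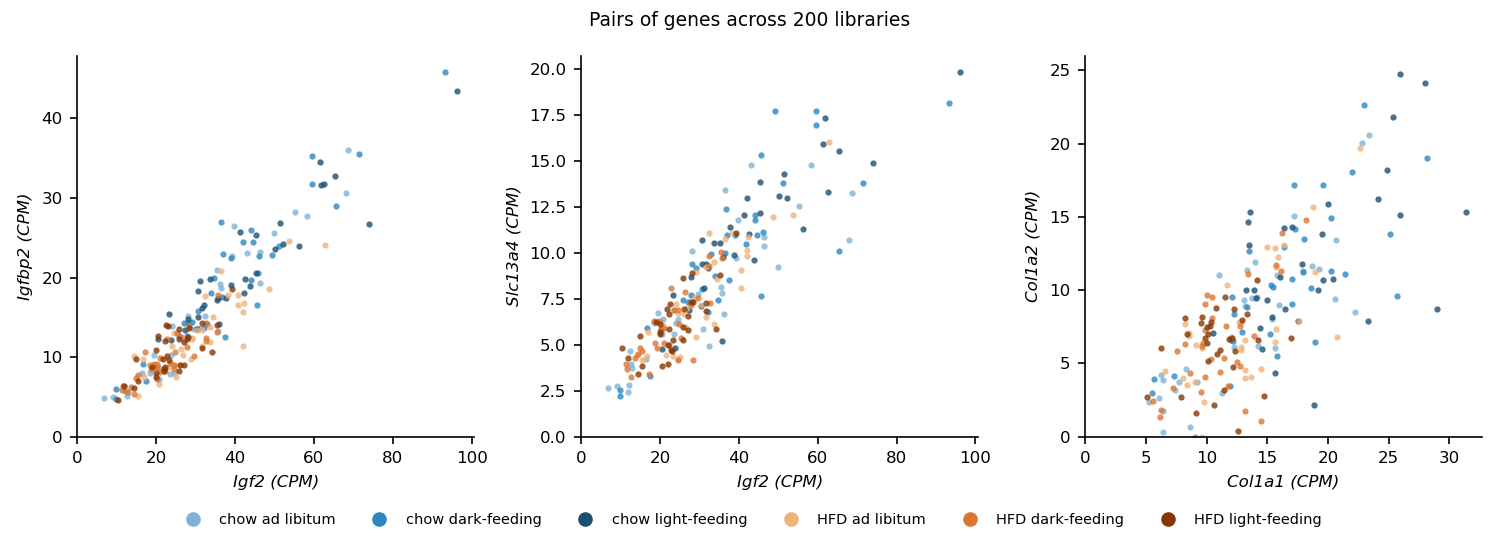
CPM of 1 gene against another in all 200 libraries, coloured by group, for Igf2 and Igfbp2, Igf2 and Slc13a4, and Col1a1 and Col1a2. The Igf2 and Igfbp2 points lie closest to a line, and the Col1a2 points scatter most.

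The genes most like each of the 6, by the same r over the 200 libraries, were largely the same few. Aebp1, Col3a1 and Fbln1, all of which encode extracellular matrix proteins, were among the 5 nearest genes of each of the 6. For Igf2 the nearest was Aebp1 (r = 0.83), for Igfbp2 Col3a1 (0.86), for Fmod Aebp1 (0.74), for Col1a1 Col3a1 (0.86), for Col1a2 Aebp1 (0.57) and for Slc13a4 Col3a1 (0.83). Slc6a20, a transporter gene, followed for Igf2 (0.77), Col1a1 (0.78) and Slc13a4 (0.77). Apoe, which astrocytes express strongly, followed for Igfbp2 (0.84), Igf2 (0.77), Fmod (0.68) and Col1a2 (0.52), and Agt, another astrocyte transcript, was the last of the 5 for Igfbp2 (0.80) and Col1a1 (0.77). The rest of the 5 were Ogn, a small leucine-rich proteoglycan gene, for Fmod (gene-Ogn in the table, 0.69), the anion transporter gene Slc22a6 for Col1a2 (0.52) and the endothelial gene Vwf for Slc13a4 (0.76). For all other genes tested r with Igf2 had a median of -0.01 and 90% of values between -0.42 and 0.44. As descriptions, r of the 6 genes with the summed lists ran from 0.55 to 0.85 for other fibroblast genes, 0.47 to 0.76 for astrocyte, 0.47 to 0.75 for endothelial, 0.48 to 0.74 for mural and 0.38 to 0.62 for choroid plexus markers. It ran from 0.35 to 0.56 for microglial, 0.04 to 0.19 for oligodendrocyte and -0.01 to 0.15 for neuronal markers.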

How the data were processed

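RNA-seq of 200 libraries was deposited as 2 tables. The authors deposited expected counts per gene, estimates of which 8.03% were not whole numbers, and FPKM for 17611 genes. Per the labels' protocols, poly(A) RNA was captured and sequenced from a strand-specific library, and per the submitters' processing notes the build was Rnor_6.0; aligner and counter: not given in the sources used here. Counts were rounded to whole numbers, filtered with edgeR's filterByExpr, scaled by TMM and tested with the quasi-likelihood test (R 4.3.3, edgeR 4.0.16, limma 3.58.1, DESeq2 1.42.0), with Zeitgeber time as a term, for the 14393 genes kept and at an adjusted p of 0.05. Each comparison was fitted on its own groups. The design had foreseen plain counts.

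The count of reads limits precision, and intervals of fold changes cover 95%. Alternatives were DESeq2, no filter, log2(FPKM + 0.1) and log2(FPKM + 1) with limma, all 6 groups in one fit, a cosine time term, a spline of the title number with 3 degrees of freedom, leaving out each time in turn, and, chosen after seeing the data, leaving out 2 title ranges and testing rhythm differences. The spline was not run for differences in level between the diets. Correlations used log2 CPM with a prior count of 2 (Python 3.11.15, scipy 1.17.1). The tests were run on simulated data with independent libraries, the same variability for every gene and no trend with title number. Their error rates for data like these were therefore not checked. The 6 genes, the marker and pathway lists and the title ranges were chosen with earlier results of these data known. By rule, the text names all 6 genes, up to 3 genes of each pathway list with the smallest adjusted p between the diets under light-feeding, and the 5 genes most like each of the 6; other genes of these lists were named after their values were seen, and cell type markers are given by counts and sums.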

Additional observations from a re-analysis of the deposited data

Results flagged for a closer look

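In 19 of 216 sets of libraries of a single gene, group and time, 1 library stood apart from the others by Dixon's criterion (15 high, 4 low). Chance marks about 1 in 20 sets where values are normally spread and sets are independent. The 6 genes rose and fell together, so these sets are not independent and nothing is read from their number. In the chow light-feeding group at ZT18 the highest library stood apart for 4 genes, namely Igf2 (73.9 CPM, the nearest at 36.1), Fmod (13.6 CPM, 6.14), Col1a1 (28.0 CPM, 19.2) and Col1a2 (24.2 CPM, 14.3), and at ZT22 for Fmod (11.3 CPM, 7.73). Under HFD dark-feeding at ZT10 the highest library stood apart for Igfbp2 (17.9 CPM, the nearest at 9.94), Fmod (7.94 CPM, 4.66) and Slc13a4 (9.75 CPM, 5.90).

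Under HFD light-feeding the highest library stood apart at ZT14 for Igf2 (39.3 CPM, the nearest at 27.9) and Igfbp2 (18.6 CPM, 12.3), at ZT18 for Fmod (8.51 CPM, 4.72) and at ZT22 for Igfbp2 (14.1 CPM, 9.71) and Fmod (6.88 CPM, 4.31). The lowest library stood apart there for Igf2 at ZT22 (14.8 CPM, 19.9) and for Col1a2 at ZT14 (1.64 CPM, 6.60). In the HFD ad libitum group the lowest library stood apart for Igf2 at ZT18 (15.4 CPM, 24.0) and Fmod at ZT6 (6.13 CPM, 8.19), and the highest for Col1a2 at ZT6 (19.7 CPM, 13.1). In the chow ad libitum group the highest library of Igfbp2 at ZT2 stood apart (25.7 CPM, 13.6).

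The difference in rhythm between the diets under light-feeding was called for Igfbp2, Fmod and Slc13a4. Adjusted p-values were 0.0277, 0.0316 and 0.0312 in that order (edgeR). The test was of the difference itself and was chosen after seeing the data. In the same test 9.02% of all genes were called. With a spline of the title number within each diet no gene of these kept its call. Time and title number were not independent, so nothing is read from the loss.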

How the results depend on the processing

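The diet difference under light-feeding kept all 6 genes called in each of the 12 alternatives run, none of which took the title number into account. Except where stated here or above, the number of all genes called under the same alternative is not given. Nothing is read from a rise or fall in the count of the 6 genes alone. For HFD minus chow, ad libitum, 4 genes were called without chow titles 135 to 152 (4895 of all genes) and 2 without HFD titles 2 to 46 (2976 of all genes). The genes that changed sign were, without the chow titles, Igf2 (-0.36, called), Fmod (-0.25, not called) and Slc13a4 (-0.29, not called), and without the HFD titles Igf2 (-0.75, not called), Fmod (-0.38, not called) and Slc13a4 (-0.97, called); Col1a1 was 0.024 and 0.0042 on FPKM with pseudocounts of 0.1 and 1. Leaving out 1 time gave Igf2 -0.10 to 0.20, Igfbp2 -0.35 to 0.013, Fmod -0.036 to 0.26, Col1a1 -0.15 to 0.072, Col1a2 -0.24 to 0.089 and Slc13a4 -0.15 to 0.17. For chow dark-feeding minus ad libitum, Igf2 was -0.0020 with the title spline and Col1a2 -0.0042 without chow titles 135 to 152.

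For chow light-feeding minus ad libitum, 1 gene was called with no filter, 6 with all groups in one fit, 0 with the title spline, 0 without chow titles 135 to 152, and 0 to 6 when 1 time was left out (0 without ZT2, ZT6, ZT10 or ZT22, 6 without ZT14, 5 without ZT18). Of all genes 0 were called without chow titles 135 to 152, from 241. For HFD dark-feeding minus ad libitum, 2 were called with all groups in one fit, 0 with the spline, 0 without HFD titles 2 to 46 (Igfbp2 0.030, Col1a1 0.18, Slc13a4 0.14) and 2 to 5 with 1 time left out (2 without ZT22). For HFD light-feeding minus ad libitum, 2 were called with no filter, 2 with either FPKM pseudocount, 1 with all groups in one fit, 0 with the spline (Slc13a4 0.061), 0 without HFD titles 2 to 46 (Igf2 0.28, Igfbp2 0.25, Fmod 0.16, Col1a1 0.31, Slc13a4 0.52) and 0 to 6 with 1 time left out (0 without ZT2 or ZT22, 1 without ZT6). For HFD light-feeding minus dark-feeding, Col1a1 was 0.0070 and 0.0019 on FPKM, 0.000648 with all groups, 0.0016 with the cosine and 0.0050 with the spline, and Col1a2 0.11, 0.029, 0.00807 (cosine) and 0.11 (spline). With 1 time left out Igf2 was -0.057 to 0.23, Igfbp2 -0.020 to 0.19, Col1a1 -0.12 to 0.10, Col1a2 -0.14 to 0.10 and Slc13a4 -0.071 to 0.18.

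For rhythm over all groups, leaving out 1 time gave 0 to 3 genes (0 without ZT6, 1 without ZT18, 3 without ZT10). With the title spline 0 genes were called for rhythm under chow light-feeding, HFD ad libitum and HFD dark-feeding and for the rhythm difference under light-feeding. Time and title number were not independent, so this spline can take up time of day as well. The cause was not tested. Without chow titles 135 to 152 the rhythm difference was called for 1178 of all genes under dark-feeding and 13 under ad libitum feeding, from 0. No paired analysis was possible because the labels give no replicate numbers shared between groups. The lowest median count among the 6 genes was 42, for Fmod.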
